A study of Mus musculus with 22 samples.

Results

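Colon tumours rich in Ido1 transcript were compared with colon tumours poor in it. The 22 tumours of the series were ranked by their Ido1 level, and the 7 at the top of the ranking (Ido1-high) were set against the 7 at the bottom (Ido1-low). Thus 14 of the 22 tumours entered the comparison, and the 8 in the middle of the ranking did not. The groups were selected on a measured value and are not groups of the study, so Ido1's own difference is given as a description without a test. Each of the other probe sets was a separate measurement and was tested. The tests ask which genes went with the Ido1 level across tumours, and they are no tests of a diet or a drug.

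Every tumour had been induced with azoxymethane, a colon carcinogen in rodents, and all mice were males of the inbred strain FVB/N. There were 6 control mice on a low-fat diet (10% of energy from fat), 5 obese mice on a high-fat diet (60% of energy from fat), and 6 obese sulindac mice, which had the same high-fat diet and sulindac, a non-steroidal anti-inflammatory drug. The 5 formerly obese mice had been switched to a low-fat diet after the high-fat one and had no sulindac. Ages, doses and the length of each treatment are not stated in the labels. Each array came from the whole RNA of 1 tumour, so fewer cells of a type and less RNA per cell cannot be told apart. Tumours are named by regimen and mouse label.

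IDO1 is the enzyme that opens the indole ring of tryptophan, the first step towards kynurenine, and it is known for restraining T cells in tumours and in inflamed gut. Its gene is a classical target of interferon-gamma, a cytokine of activated T cells and natural killer cells. Interferon-gamma binds a receptor found on most cells, and the signal runs through Janus kinases to gamma-activated sites in DNA. Other textbook targets are the factor IRF1, the chemokines CXCL9 and CXCL10, the immunoproteasome, the class I antigen presentation machinery and families of GTPases that attack intracellular pathogens.

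Promoters of 5 of the largest named rises are shown, leaving out Iigp1, whose promoter is not printed here, and genes that are not in RefSeq's promoter table, since the genes that were higher in Ido1-high tumours included many known interferon targets. Sequences come from the mouse assembly GRCm38.p6, run 5′ to 3′ on the gene's strand, and span 250 bases before to 50 after the start site. Capitals mark matches on either strand to 2 motifs, the gamma-activated site TTCNNNGAA and the core of the interferon-stimulated response element, GAAANNGAA. In the sequences below no match of the one motif overlaps a match of the other. Reg3b lies at chr6:78370635-78370934 on the plus strand. Reg3g lies at chr6:78468825-78469124, Tgtp2 at chr11:49064163-49064462, Cxcl9 at chr5:92328030-92328329 and the first of 2 start sites of Ifit1bl1 at chr19:34601919-34602218, all on the minus strand.
Reg3b: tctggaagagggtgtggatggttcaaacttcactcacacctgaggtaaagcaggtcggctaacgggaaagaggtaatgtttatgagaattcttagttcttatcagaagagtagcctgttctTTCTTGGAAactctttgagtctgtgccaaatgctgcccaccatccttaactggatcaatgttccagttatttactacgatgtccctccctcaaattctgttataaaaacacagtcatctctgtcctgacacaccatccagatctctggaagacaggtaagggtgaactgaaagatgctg
Reg3g: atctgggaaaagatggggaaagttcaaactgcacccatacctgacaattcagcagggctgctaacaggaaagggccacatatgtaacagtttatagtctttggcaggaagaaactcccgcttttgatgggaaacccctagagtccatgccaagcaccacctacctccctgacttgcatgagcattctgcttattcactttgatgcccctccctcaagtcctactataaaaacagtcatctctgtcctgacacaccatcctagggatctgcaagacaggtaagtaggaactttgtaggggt
Tgtp2: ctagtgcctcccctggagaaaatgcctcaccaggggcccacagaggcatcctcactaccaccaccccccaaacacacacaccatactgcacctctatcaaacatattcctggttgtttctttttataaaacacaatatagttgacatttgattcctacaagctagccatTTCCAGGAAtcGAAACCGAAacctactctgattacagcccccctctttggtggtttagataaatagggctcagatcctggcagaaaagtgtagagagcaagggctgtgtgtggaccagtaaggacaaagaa
Cxcl9: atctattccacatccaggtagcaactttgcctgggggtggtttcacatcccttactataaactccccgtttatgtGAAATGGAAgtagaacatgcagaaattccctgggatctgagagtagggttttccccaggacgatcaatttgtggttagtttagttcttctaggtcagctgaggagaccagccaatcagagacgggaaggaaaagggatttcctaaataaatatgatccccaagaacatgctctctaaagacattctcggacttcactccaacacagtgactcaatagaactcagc
Ifit1bl1: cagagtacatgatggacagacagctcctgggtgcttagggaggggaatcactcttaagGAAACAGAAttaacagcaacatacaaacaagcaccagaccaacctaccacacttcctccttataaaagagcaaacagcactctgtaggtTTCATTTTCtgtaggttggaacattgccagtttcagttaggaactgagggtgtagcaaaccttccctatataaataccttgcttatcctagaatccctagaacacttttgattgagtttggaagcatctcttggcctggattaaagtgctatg
In Tgtp2, a gamma-activated site begins 81 bases before the start site and a response element core 70 bases before it. Reg3b has 1 gamma-activated site, and Reg3g has neither motif in this window. Cxcl9 carries 1 response element core, 175 bases before its start, and Ifit1bl1 carries 2, at 192 and 103 bases. Either motif was found in 14.9% of the 15691 tested genes with a promoter in the table, in 25.4% of the 276 such genes that were higher in Ido1-high tumours and in 16.7% of the 227 that were lower. For the gamma-activated site alone these shares were 7.9%, 12.7% and 10.6%, and for the response element core 8.07%, 15.6% and 6.17%. A match describes the letters and does not show that a factor binds there.

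The arrays gave levels for 22203 probe sets on a scale read as log2, on which 1 unit is taken as a factor of 2. Array medians lay between 6.67 and 6.83 in the Ido1-high tumours and between 6.68 and 6.82 in the Ido1-low tumours. Correlations between 2 arrays ran from 0.947 to 0.988 with a median of 0.977. Epcam, a surface protein of epithelial cells, had means of 17.16 ± 0.14 (SD, n = 7) in the Ido1-high tumours and 16.94 ± 0.22 (SD, n = 7) in the Ido1-low tumours. Of 12 squamous and anal epithelium genes, the keratin gene Krt5 was near the bottom of the scale in both, at 4.08 to 4.80 and 4.09 to 4.68. Krt14 lay at 8.09 to 12.59 against 6.06 to 9.93 and Ly6d at 10.69 to 12.98 against 8.34 to 12.03, and neither passed the test described below (adjusted p = 0.248 and 0.0537, limma). The average of that list ran from 6.21 to 7.56 against 5.75 to 7.30, and its part in the other differences was not tested. Precision is limited by the number of arrays.

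Ido1 covered a wide range, from 4.83 to 13.50. The Ido1-high tumours were obese Mouse_109 at 13.50, formerly obese Mouse_134 at 12.67, formerly obese Mouse_152 at 12.63, obese sulindac Mouse_125 at 12.31, formerly obese Mouse_150 at 11.90, obese sulindac Mouse_124 at 11.84 and control Mouse_30 at 11.67. The Ido1-low tumours were formerly obese Mouse_146 at 7.50, obese sulindac Mouse_X at 6.71, control Mouse_32 at 6.53, control Mouse_17 at 6.32, obese sulindac Mouse_131 at 6.14, obese Mouse_96 at 5.09 and control Mouse_26 at 4.83. Group means were 12.36 ± 0.64 (SD, n = 7) and 6.16 ± 0.93 (SD, n = 7), a difference of 6.20 that the selection itself made. The last tumour taken into the high group stood at 11.67 and the first left out, obese Mouse_101, at 10.99. At the other end the last one taken stood at 7.50 and the first left out, control Mouse_27, at 7.52. The widest gap in the ranking lay between 10.99 and 8.72, so the upper boundary was near a break in the values and the lower one was not.

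**Figure D1:**
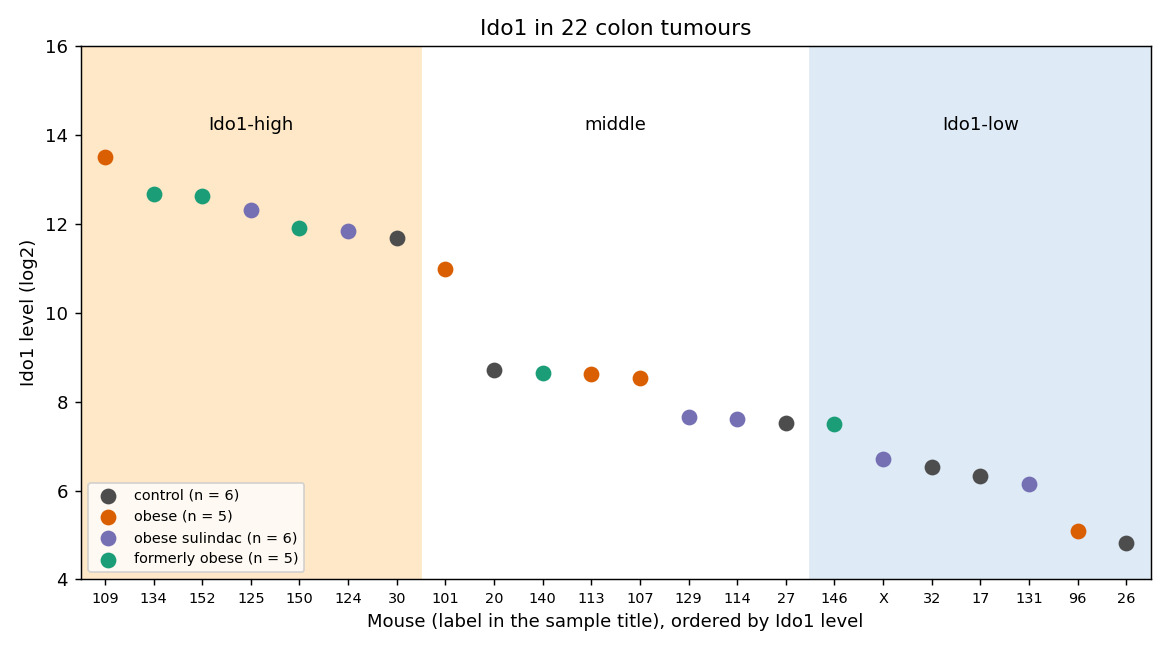
Ido1 level (log2) of each of the 22 tumours in rank order, coloured by regimen, with the 7 Ido1-high tumours on the left and the 7 Ido1-low tumours on the right. The high group ends at 11.67, and the low group begins at 7.50, next to a middle tumour at 7.52.

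Every regimen was present at both ends. Control mice gave 1 Ido1-high, 2 middle and 3 Ido1-low tumours, and formerly obese mice gave 3, 1 and 1. Obese mice gave 1, 3 and 1, and obese sulindac mice gave 2, 2 and 2. No difference in the mix of the ends was detected (exact permutation test of the chi-square statistic over 3432 equal splits of the 14 tumours, two-sided p = 0.874). With so few tumours of each regimen, only a large shift could have been detected. The same permutation test gave p = 0.0952 with 5 tumours at each end and 0.419 with 11. The lowest, median and highest Ido1 levels were 4.83, 7.02 and 11.67 in control mice, 5.09, 8.61 and 13.50 in obese mice, 6.14, 7.64 and 12.31 in obese sulindac mice, and 7.50, 11.90 and 12.67 in formerly obese mice.

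All 12 measured interferon-inducible GTPase genes, 16 of 23 interferon-gamma effector genes and 11 of 16 MHC class I genes were higher in Ido1-high tumours. So were 5 of 22 epithelial defence genes, while 4 of 16 WNT target and stem cell genes were lower. Over all 22202 other probe sets, 699 (3.15%) passed the test at an adjusted p under 0.05 (limma, Benjamini-Hochberg, two-sided). Of these, 396 (1.78%) were higher and 303 (1.36%) were lower in the Ido1-high tumours. All 7 high tumours lay above all 7 low tumours at 178 probe sets (0.802%) and below them at 108 (0.486%). At an unadjusted p under 0.05, where counts are given below for lists with few calls, 8.18% of all probe sets were above 0 and 9.47% below. The median difference of all probe sets was -0.02, with 10590 above 0 and 11612 below. Differences are the mean of the Ido1-high tumours minus the mean of the Ido1-low tumours in log2 units, with ± its standard error, and a fold is 2 raised to the size of that difference.

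The number of genes called depended on where the ranking was divided. With regimen as a block, 203 probe sets passed (0.914%), 0.658% of all probe sets higher and 0.257% lower. A split of all 22 tumours at the median gave 0 calls by limma, with 2462 probe sets at an unadjusted p under 0.05. There 698 of the 699 main calls kept their sign, but that split holds the same 14 tumours on the same sides, so this is no independent check. Centring each array on its median left 711 calls but moved the balance from 396 higher and 303 lower to 480 and 231. Leaving out 1 tumour at a time gave between 309 and 747 calls. The count moved by over 1.5 times without obese sulindac Mouse_124 (309), formerly obese Mouse_152 (332), control Mouse_30 (372), obese Mouse_96 (373), control Mouse_26 (393), obese sulindac Mouse_125 (433) and obese Mouse_109 (461). P-values measure the spread between these tumours, each from a mouse of its own as far as the titles say.

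The interferon-inducible GTPases, which assemble on the vacuoles of intracellular pathogens and break them open, were higher as a family. All 12 of the 12 measured members passed the test, with a median difference of 2.31 against -0.02 for all probe sets, and at 10 of them the groups did not overlap. Iigp1 lay at 9.71, 10.65 and 11.55 (lowest, median, highest) in the Ido1-high tumours and at 5.64, 7.26 and 7.85 in the Ido1-low tumours. Every high tumour thus exceeded every low one, and the difference was 3.59 ± 0.33, with an adjusted p of 7.18e-05 (limma). Tgtp2 lay at 12.14, 13.23 and 13.89 in the high tumours and at 8.70, 9.66 and 10.44 in the low ones, a difference of 3.56 ± 0.31, or 11.8-fold (adjusted p = 5.96e-05). Obese sulindac Mouse_125 was the lowest of the high tumours for Tgtp2 at 12.14, still above the highest low tumour at 10.44. Igtp differed by 2.93 ± 0.36, Gbp2 by 2.83 ± 0.37 and Gbp4 by 2.32 ± 0.26, each without overlap. Averaged over the 12 genes, the level ran from 11.01 to 12.06 in the high tumours and from 8.13 to 9.90 in the low ones. All 12 passed in each of the 14 fits that leave out a tumour, 10 passed with regimen as a block, and 0 with the split at the median. These GTPases, like the pair Reg3b and Reg3g, belong to families of close relatives, and sharing of signal between their probes was not tested.

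Effectors of interferon-gamma moved the same way. Of 23 measured genes other than Ido1, 16 were higher and 0 lower by the test, 23 had a difference above 0, and the median difference was 2.01. Nos2, which makes nitric oxide, lay at 8.93, 10.99 and 12.56 in the Ido1-high tumours and at 5.97, 7.42 and 9.22 in the Ido1-low tumours. A single high tumour, obese sulindac Mouse_125 at 8.93, was within the low range, and the difference was 3.58 ± 0.57 (adjusted p = 0.00489). Cxcl9, a chemokine that draws in T cells through the receptor CXCR3, lay at 9.57, 11.97 and 12.81 in the high tumours and at 6.68, 8.30 and 9.23 in the low ones. The groups did not overlap, though formerly obese Mouse_134 at 9.57 came close to formerly obese Mouse_146 at 9.23. The difference was 3.46 ± 0.50 (adjusted p = 0.00232). Cxcl10, its relative, differed by 2.43 ± 0.43 and the factor Batf2 by 2.92 ± 0.38, neither with overlap. Irf1, the transcription factor through which much of the response runs, lay at 12.41 to 14.29 against 10.66 to 12.24, a difference of 2.08 ± 0.29 (adjusted p = 0.00204). Ciita, the master regulator of class II genes, was 1.44 ± 0.29 higher (adjusted p = 0.0173), with 6 of 7 high tumours above every low one. With regimen as a block, 15 of the 23 passed.

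**Figure D2:**
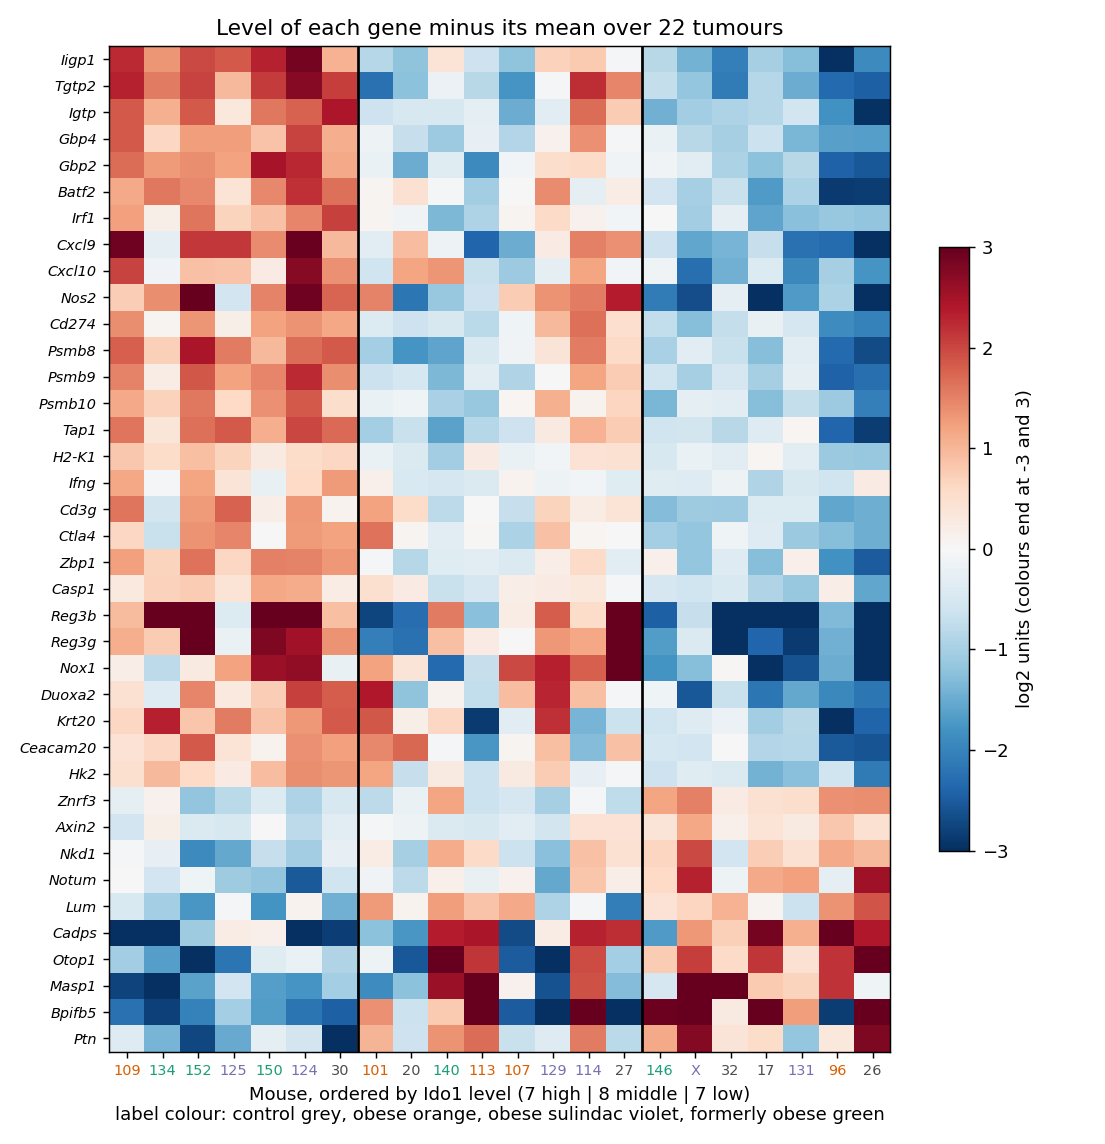
Level of single genes in each tumour minus the gene's mean over the 22 tumours (colour, log2 units, ends of the scale at -3 and 3), with tumours in the order of their Ido1 level and lines between the high, middle and low tumours. Iigp1 and Tgtp2 are above their mean in all 7 Ido1-high tumours, and so are they in obese sulindac Mouse_114, a middle tumour with Ido1 at 7.61.

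Of 26 ligands, receptors and signalling genes 4 were higher and 0 lower, and their median difference was 0.28. Ifng itself was close to the bottom of the scale, at 4.76, 5.57 and 6.25 in the Ido1-high tumours and at 4.08, 4.60 and 5.24 in the Ido1-low ones. Its difference of 0.99 ± 0.25 passed the test (adjusted p = 0.0434), but the call held in only 3 of the 14 fits that leave out a tumour and not with regimen as a block (adjusted p = 0.0656). Ifngr1, which binds interferon-gamma, had means of 14.30 ± 0.26 against 13.24 ± 0.54 (SD, n = 7 each), with a difference of 1.06 ± 0.22 (adjusted p = 0.0174, and 0.0584 with regimen as a block). Irf8, a factor of myeloid cells that interferon-gamma also induces, was 1.15 ± 0.18 higher with no overlap (adjusted p = 0.00489). Stat2, which serves type I interferon signalling, was 0.98 ± 0.23 higher (adjusted p = 0.0378, and 0.131 with regimen as a block), and its call held in 5 of the 14 fits.

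Of 29 genes known mainly as targets of type I interferon, 6 were higher and 0 lower, 28 of the 29 differences were above 0 and their median was 1.04. Ifih1, a sensor of double-stranded RNA, lay at 11.96 to 12.80 in the Ido1-high tumours and at 9.97 to 11.78 in the Ido1-low ones, 1.45 ± 0.24 higher with no overlap (adjusted p = 0.00594). Zbp1, a sensor of nucleic acids in the Z form that can start necroptosis, lay at 9.02 to 10.04 against 5.90 to 8.56, 2.19 ± 0.37 higher (adjusted p = 0.00645). Ifit2 and Herc6 were 1.43 ± 0.34 and 1.29 ± 0.31 higher, with adjusted p-values of 0.0378 and 0.0396 that became 0.137 and 0.15 with regimen as a block. Their calls held in 4 and 5 of the 14 fits that leave out a tumour. The difference between the 2 interferon lists was not tested.

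The machinery that cuts and loads peptides for MHC class I was higher. Of 16 measured genes, 11 were higher and 0 lower, the median difference was 0.89, and 7 genes had no overlap. The 3 immunoproteasome subunits and Tap1 were counted with the interferon-gamma effectors. Psmb8 lay at 11.59, 12.55 and 13.34 in the Ido1-high tumours and at 8.21, 9.92 and 10.57 in the Ido1-low ones, a difference of 2.79 ± 0.38 (adjusted p = 0.0015). Psmb9 differed by 2.56 ± 0.36 and Psmb10 by 2.12 ± 0.28, both without overlap. Tap1, a subunit of the peptide pump into the endoplasmic reticulum, lay at 11.72 to 13.35 against 8.49 to 11.40 and differed by 2.55 ± 0.42 (adjusted p = 0.0057). The class I heavy chain gene H2-K1 was abundant in all tumours, at 15.93 to 16.58 against 14.53 to 15.73, and differed by 1.13 ± 0.19 (adjusted p = 0.00577). Psme2, an activator of the proteasome, differed by 1.06 ± 0.14, and the loading factors Tapbp and Tapbpl by 0.79 ± 0.14 and 1.02 ± 0.15.

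Of 13 measured MHC class II genes, 1 passed the test. This was Ctss, the protease that trims the invariant chain, at 1.15 ± 0.30 (adjusted p = 0.0464, and 0.109 with regimen as a block), and its call held in 4 of the 14 fits. The list's median difference was 1.08, with 10 genes above 0. H2-Ab1, a class II beta chain, lay at 10.48, 12.10 and 12.26 in the Ido1-high tumours and at 9.33, 10.58 and 11.36 in the Ido1-low ones, and its difference of 1.29 ± 0.36 did not pass (adjusted p = 0.066). H2-DMb1, a chain of the peptide editor, had 1.42 ± 0.38 (adjusted p = 0.054). Both ranges overlapped.

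Of the 23 other measured genes of tryptophan and kynurenine metabolism, 0 passed the test by limma, with 3 above and 4 below 0 at an unadjusted p under 0.05, and their median difference was 0.05. Ido2, the relative of Ido1, stayed near the bottom of the scale at 4.20 to 4.45 in the Ido1-high tumours and 3.78 to 5.02 in the Ido1-low ones, a difference of 0.16 ± 0.17. Tdo2, the liver-type enzyme for the same step, differed by -0.17 ± 0.23 with levels of 3.79 to 4.82 and 4.13 to 5.81. Downstream, Kmo had a difference of 0.88 ± 0.26 (adjusted p = 0.0772), Kynu 0.37 ± 0.38 (adjusted p = 0.686) and Haao 0.75 ± 0.32 (adjusted p = 0.238). Haao was above every low tumour in 5 of the 7 high tumours and below every low tumour in 1, obese sulindac Mouse_124 at 4.49. The transaminase gene Kyat1 had -0.82 ± 0.22 (adjusted p = 0.0503) and the amino acid carrier genes Slc6a14 and Slc7a8 had 1.92 ± 0.51 (adjusted p = 0.0539) and -2.49 ± 0.68 (adjusted p = 0.0578). Ahr, the receptor that kynurenine can bind, had -0.52 ± 0.19 (adjusted p = 0.165), and its target Cyp1a1 lay at 3.78 to 4.36 against 3.77 to 4.50.

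Among immune checkpoint genes 5 of 22 were higher and 0 lower, with a median difference of 0.63. Cd274, the gene of the ligand PD-L1 and itself an interferon-gamma target, lay at 9.10, 10.23 and 10.42 in the Ido1-high tumours and at 6.98, 8.29 and 8.79 in the Ido1-low ones. The groups did not overlap, and the difference was 2.01 ± 0.31, or 4.03-fold (adjusted p = 0.00402). Ctla4, an inhibitory receptor of T cells, lay at 7.51 to 9.66 against 6.72 to 8.05 and differed by 1.68 ± 0.33 (adjusted p = 0.0131). Its ligands Cd86 and Cd80 differed by 0.84 ± 0.20 and 1.11 ± 0.27 (adjusted p = 0.037 and 0.0402). Lag3, named after its values were seen as the fifth gene called, differed by 0.86 ± 0.21 (adjusted p = 0.0418). The calls of Cd86, Cd80 and Lag3 held in 4, 3 and 2 of the 14 fits that leave out a tumour, and with regimen as a block only that of Cd80 among them did (adjusted p = 0.075, 0.043 and 0.0933).

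Of 17 T cell genes 3 were higher and 0 lower, 16 differences were above 0 and the median was 0.82. Cd3g, a chain of the T cell receptor complex, lay at 7.03, 8.86 and 9.37 in the Ido1-high tumours and at 6.04, 6.50 and 7.19 in the Ido1-low ones. Formerly obese Mouse_134, at 7.03, was the only high tumour within the low range, and the difference was 1.85 ± 0.34 (adjusted p = 0.0105). Cd247, the zeta chain, differed by 0.85 ± 0.19 (adjusted p = 0.0268, and 0.0937 with regimen as a block) and was not called without obese Mouse_109 or formerly obese Mouse_152 (adjusted p up to 0.0591). The costimulator Icos was 2.06 ± 0.54 higher (adjusted p = 0.0497, and 0.0656 with regimen as a block), a call held in 4 of the 14 fits, and Cd3e had 1.81 ± 0.50 (adjusted p = 0.0605). Cd8a, of cytotoxic T cells, had low levels of 5.49 to 6.79 against 5.06 to 5.84, with a difference of 0.82 ± 0.22 (adjusted p = 0.0512). Averaged over the list, the level ran from 6.16 to 7.62 in the high tumours and from 5.67 to 6.52 in the low ones, so the groups overlapped. The part of T cell number in the interferon genes' differences was not tested.

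Cytotoxic effector genes were near the bottom of the scale. Nkg7, a granule protein of killer cells, was the 1 gene called of 20, at 5.58 to 6.98 against 4.71 to 5.37, with a difference of 1.02 ± 0.20 (adjusted p = 0.0157) and no overlap. Gzmb had 1.11 ± 0.37 (adjusted p = 0.119) and Prf1 0.27 ± 0.19 (adjusted p = 0.506). Of 16 genes of regulatory and helper T cells, Ikzf2 and Tnfrsf4 were higher. Ikzf2, a factor of regulatory T cells that epithelial cells can also express, lay at 9.91 to 11.19 against 7.57 to 10.32 and differed by 1.75 ± 0.36 (adjusted p = 0.0194, and 0.085 with regimen as a block). Tnfrsf4, the receptor OX40, differed by 1.24 ± 0.30 (adjusted p = 0.0401), a call held in 4 of the 14 fits. Foxp3 had no probe set under its name and was not analysed here.

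The pan-leukocyte gene Ptprc had a difference of 1.57 ± 0.48 (adjusted p = 0.0879), with 5 of 7 high tumours above every low one. For macrophages and monocytes, 0 of 21 genes were called by limma although 12 were above 0 at an unadjusted p under 0.05 and the median difference was 0.68. Adgre1, the macrophage marker F4/80, lay at 7.54 to 8.74 against 7.18 to 8.20 (difference 0.68 ± 0.20, adjusted p = 0.0795), and Cd14 had 1.12 ± 0.30 (adjusted p = 0.0535). For neutrophils 0 of 14 genes were called, with 0 above and 1 below 0 at an unadjusted p under 0.05, and that gene, Mmp9, had -1.47 ± 0.46. Mzb1, a plasma cell gene, was the only one called of 16 B and plasma cell genes (difference 1.37 ± 0.32, adjusted p = 0.0322, and 0.119 with regimen as a block), and its call held in 8 of the 14 fits. The average of that list ran from 6.18 to 8.91 in the high tumours and from 5.98 to 6.68 in the low ones. The list's median difference was 1.14, with 15 of 16 genes above 0. At an unadjusted p under 0.05, 8 genes were above 0 and 0 below. Cadm1, on the dendritic cell list and also an adhesion protein of epithelia, was lower by 1.77 on the log2 scale. Its group means were 10.11 in the Ido1-low and 8.33 in the Ido1-high tumours (adjusted p = 0.0378, and 0.0872 with regimen as a block). The call held in 5 of the 14 fits. Cadm1 was the 1 gene called of 18 on that list, which leaned the other way. The list's median difference was 0.33, with 14 genes above 0 and 4 below. At an unadjusted p under 0.05, 6 of the 18 were above 0 and 1 below.

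Of 24 inflammatory cytokine genes and NF-kB targets, 1 was called. Their median difference was 0.65, with 18 above 0 and 6 below. At an unadjusted p under 0.05, 9 were above 0 and 0 below. Tnfaip3, which encodes the NF-kB inhibitor A20, lay at 11.96 to 12.65 in the Ido1-high tumours and 9.48 to 11.55 in the Ido1-low ones (difference 1.58 ± 0.29, adjusted p = 0.00941, and 0.0508 with regimen as a block). Tnf had 1.19 ± 0.33 (adjusted p = 0.0638). Il1b had means of 10.10 ± 1.27 against 9.26 ± 1.53 (SD, n = 7 each), and its difference of 0.84 ± 0.66 was within the spread between tumours (adjusted p = 0.564). The acute phase gene Saa3 had 0.84 ± 0.58 (adjusted p = 0.5), with obese Mouse_96 at 13.33 above every high tumour.

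The 2 largest rises among named genes were in epithelial defence. Reg3b and Reg3g encode lectins that the gut lining secretes against bacteria. Reg3b lay at 11.18, 15.05 and 16.69 in the Ido1-high tumours and at 6.03, 8.24 and 10.90 in the Ido1-low ones. There was no overlap, and the difference was 5.57 ± 0.88, or 47.6-fold (adjusted p = 0.00471). Reg3g lay at 11.49, 13.05 and 16.29 against 5.78, 9.33 and 11.27, a difference of 4.37 ± 0.78 or 20.6-fold (adjusted p = 0.00912, and 0.0545 with regimen as a block). Formerly obese Mouse_152 had the highest Reg3b level of the high tumours, and the highest of the series was a middle tumour, control Mouse_27, at 17.18.

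Nox1 and Duoxa2, of the same list of defence genes, were also higher. Nox1, a superoxide-producing oxidase of colon epithelium, differed by 2.97 ± 0.67 (adjusted p = 0.0285, and 0.101 with regimen as a block). Its levels overlapped, at 10.14 to 13.58 in the Ido1-high tumours and 6.41 to 10.95 in the Ido1-low ones. The middle tumours had a mean of 12.04, above the 11.77 of the high ones, and control Mouse_27 among them reached 15.21. The call of Nox1 was lost without obese sulindac Mouse_124, obese sulindac Mouse_125 or control Mouse_17 (adjusted p up to 0.0614). Duoxa2, the maturation factor of the dual oxidase, lay at 10.89 to 13.33 against 8.74 to 11.15 and differed by 2.51 ± 0.42 (adjusted p = 0.00645). Pigr, which carries immunoglobulin A across the epithelium, was named after its values were seen as the fifth called gene of this list, with a difference of 1.41 ± 0.33 (adjusted p = 0.0345, and 0.0835 with regimen as a block), a call held in 7 of the 14 fits. In all, 5 of 22 antimicrobial defence genes were higher and 0 lower, with a median difference of 0.76.

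Of the remaining largest rises, Ifit1bl1, of the interferon-induced IFIT family, lay at 13.33 to 15.49 against 7.86 to 12.84 and differed by 3.39 ± 0.65 (adjusted p = 0.013, and 0.0599 with regimen as a block). Trim15, a ubiquitin ligase gene of gut epithelium, lay at 11.51 to 14.24 against 8.90 to 11.16, with a difference of 3.09 ± 0.42 (adjusted p = 0.0015). Ly6m, of the Ly6 family of surface proteins, differed by 2.90 ± 0.48 (adjusted p = 0.00623) and had 5 of 7 high tumours above every low one.

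**Figure D3:**
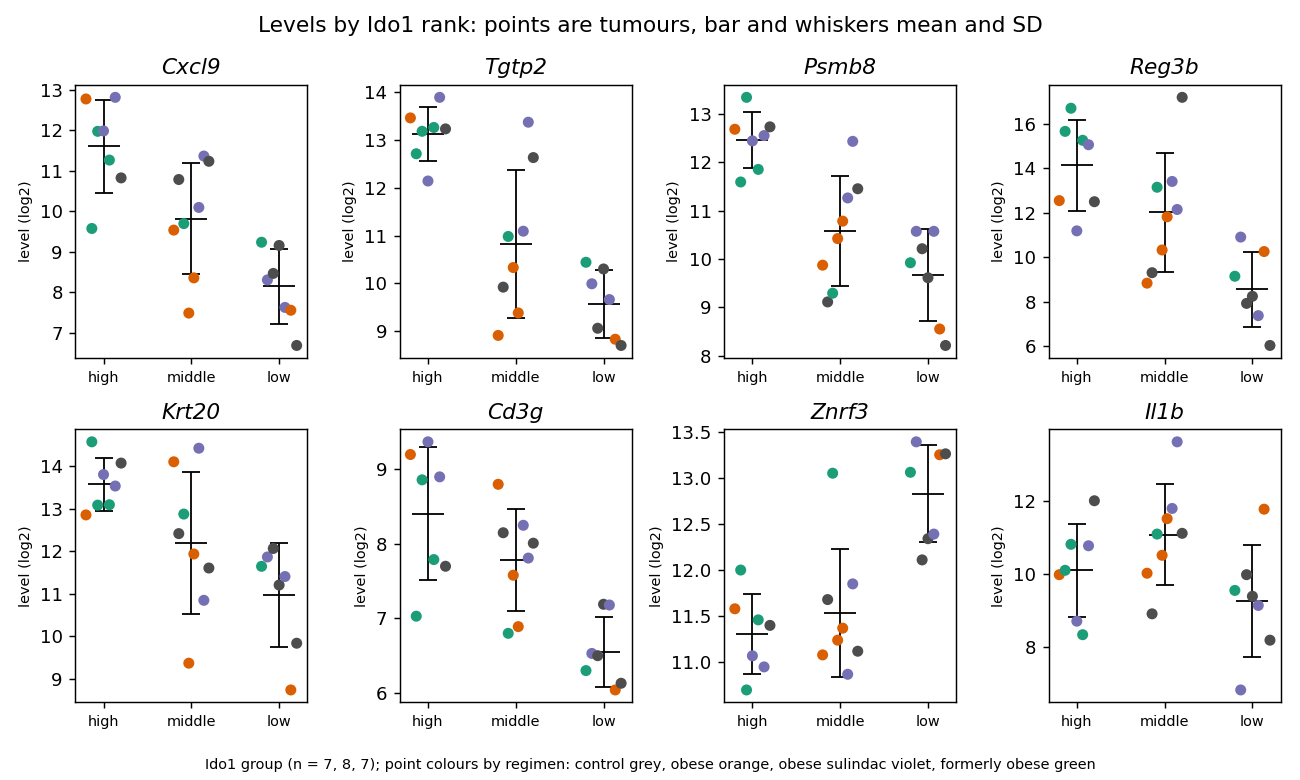
Log2 level of 8 genes in every tumour by Ido1 group (7 high, 8 middle, 7 low), coloured by regimen, with the mean and SD of each group. Cxcl9, Tgtp2, Psmb8, Reg3b and Krt20 have no overlap between the high and low tumours, Znrf3 is lower without overlap, and Il1b overlaps.

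Part of the absorptive colonocyte programme, the genes of mature surface cells, was higher as well. Of 24 measured genes 5 were higher and 0 lower, and the median difference was 1.23. Krt20, a keratin of the surface epithelium, lay at 12.86, 13.54 and 14.58 in the Ido1-high tumours and at 8.74, 11.41 and 12.07 in the Ido1-low ones, a difference of 2.61 ± 0.46 without overlap (adjusted p = 0.0083). Ceacam20, a protein of the microvilli, differed by 1.99 ± 0.40 (adjusted p = 0.0168, and 0.0546 with regimen as a block). The carbonic anhydrase gene Car2 differed by 1.56 ± 0.36, the microvillar protocadherin gene Cdhr5 by 1.54 ± 0.38, and Guca2b, named after its values were seen, by 1.83 ± 0.46, with adjusted p-values of 0.0306, 0.0402 and 0.0446. These last calls were not kept with regimen as a block, where only Krt20 of the 5 was called, and they held in 7, 6 and 3 of the 14 fits that leave out a tumour. Slc26a3, the chloride exchanger that is typical of these cells, ranged from 6.79 to 14.30 against 6.86 to 11.96, and its difference of 1.27 ± 1.03 did not pass (adjusted p = 0.579). The average of the list ran from 9.08 to 12.28 in the high tumours and from 7.78 to 9.73 in the low ones, and formerly obese Mouse_134 was at 12.28, with the next of the high tumours at 10.26. Without that tumour 650 probe sets were called, 507 of them among the 699 main calls. With the Slc26a3 level as a covariate 545 were called, 450 of them among the 699. The part of this cell type in the other differences was not tested.

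Other epithelial lineages had no calls. Goblet cell genes (15 measured), Paneth and deep crypt secretory genes (14) and tuft and enteroendocrine genes (17) each had 0 called by limma, with 1, 0 and 0 above and 0, 0 and 2 below 0 at an unadjusted p under 0.05. Muc2, the goblet cell mucin, lay at 16.54 to 18.97 against 15.73 to 18.18 (difference 0.41 ± 0.39, adjusted p = 0.644). Of 13 fetal-like and regenerative genes, Ly6c1, of the Ly6 family and better known from endothelium and leukocytes, was the only one higher, at 2.21 ± 0.53 (adjusted p = 0.0377, and 0.0845 with regimen as a block), a call held in 4 of the 14 fits.

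Among genes of programmed cell death, 7 of 18 were higher and 1 was lower, with a median difference of 0.78. Beside Zbp1, Casp1, the inflammasome protease, lay at 13.24 to 14.18 in the Ido1-high tumours and 11.46 to 13.21 in the Ido1-low ones and differed by 1.37 ± 0.24 (adjusted p = 0.00763). Mlkl, which perforates membranes in necroptosis, differed by 1.16 ± 0.24 (adjusted p = 0.0198) and Bak1, of the mitochondrial path of apoptosis, by 0.87 ± 0.17 (adjusted p = 0.013). With regimen as a block Mlkl and Bak1 had adjusted p-values of 0.0621 and 0.0584. Bcl2l11, which encodes the death promoter BIM, was the 1 gene lower and is named after its values were seen, with a difference of -1.10 ± 0.25 (adjusted p = 0.0267, and 0.0598 with regimen as a block), a call held in 9 of the 14 fits.

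Of 16 measured WNT target and stem cell genes, 4 were lower and 0 higher. All 16 differences were below 0, 10 of them at an unadjusted p under 0.05, and the median was -0.91. The 4 called genes encode products known to damp WNT signalling and to be induced by it. Znrf3, a ligase that removes WNT receptors from the surface, had a lowest level of 10.70 and a median of 11.40 in the Ido1-high tumours and lay at 12.11, 13.06 and 13.39 in the Ido1-low ones. All 7 high tumours were thus below all 7 low ones, with a difference of -1.52 ± 0.24 (adjusted p = 0.00489). Axin2, a scaffold for the breakdown of beta-catenin, lay at 13.81, 14.15 and 14.77 against 14.75, 15.00 and 15.74, a difference of -0.87 ± 0.18 (adjusted p = 0.0173). Nkd1 had -1.58 ± 0.36 and Notum, which strips WNT ligands of their lipid, -1.92 ± 0.47 (adjusted p = 0.029 and 0.0397). With regimen as a block Znrf3 and Axin2 passed, while Nkd1 and Notum had adjusted p-values of 0.0838 and 0.127, and their calls held in 9 and 5 of the 14 fits. The stem cell gene Lgr5 ranged from 7.96 to 11.81 against 9.38 to 14.12, with means of 9.85 and 11.85, and its difference did not pass (adjusted p = 0.139).

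The largest falls were in genes of diverse function. Bpifb5, of a family of lipid-binding secreted proteins, had the largest at -4.20 ± 0.95 (adjusted p = 0.0285), from 6.13, 11.92 and 13.93 in the Ido1-low tumours to 6.16, 6.78 and 7.94 in the Ido1-high ones. A low tumour at 6.13 stood below every high tumour, so the ranges overlapped. Otop1, a proton channel gene, lay at 8.24, 10.30 and 11.16 in the high tumours and at 11.82, 13.43 and 15.52 in the low ones, with no overlap and a difference of -3.11 ± 0.56 (adjusted p = 0.00912). Masp1, a protease of the lectin pathway of complement, had -3.17 ± 0.61 and the metalloprotease gene Adamts17 had -2.44 ± 0.44, both without overlap (adjusted p = 0.0128 and 0.00899). Vill, of the villin family of actin regulators, lay at 5.10 to 6.05 against 7.07 to 9.91 and had -2.40 ± 0.39 (adjusted p = 0.00573). Cadps, a factor of vesicle release, had -3.49 ± 0.84, and Gata5, a transcription factor of gut endoderm, had -2.70 ± 0.68 (adjusted p = 0.0378 and 0.0436). The mitochondrial glycine cleavage gene Amt had -2.60 ± 0.53, Tmem150c -2.61 ± 0.51 and the matrix gene Sbspon -2.29 ± 0.47. The growth factor gene Ptn and the secreted protein gene Tafa2 had -2.38 ± 0.60 and -2.29 ± 0.57 (adjusted p = 0.0447 and 0.0412). With regimen as a block Adamts17 and Vill were called of these 12 (adjusted p = 0.0403 and 0.0319), and the calls of Bpifb5, Cadps, Gata5, Ptn and Tafa2 held in 9, 4, 3, 2 and 4 of the 14 fits that leave out a tumour.

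Of the stromal lists, 1 had a call. Lum, a proteoglycan of the collagen matrix, was the 1 gene called of 20 fibroblast and matrix genes, lower by 1.60 from 9.48 to 7.88 in group means (adjusted p = 0.0402, and 0.13 with regimen as a block), a call held in 4 of the 14 fits. The list's median difference was -0.50, with 18 of 20 below 0, and Fn1, which encodes fibronectin, had -1.09 ± 0.36 (adjusted p = 0.115). Endothelial, smooth muscle and enteric neuron lists had 0 calls of 16, 13 and 11 genes by limma, with 0, 1 and 2 above and 1, 0 and 1 below 0 at an unadjusted p under 0.05. Myh11 of smooth muscle lay at 7.55 to 11.79 against 7.47 to 9.84.

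Metabolic lists had few calls. Hk2, a hexokinase that commits glucose to glycolysis, lay at 9.70, 10.37 and 10.84 in the Ido1-high tumours and at 7.33, 8.83 and 9.09 in the Ido1-low ones, a difference of 1.82 ± 0.27 without overlap (adjusted p = 0.00311). The hypoxia targets Car9 and Egln3 were 1.25 ± 0.25 and 1.15 ± 0.25 higher without overlap (adjusted p = 0.0161 and 0.0258), though not with regimen as a block (0.07 and 0.0684), and Egln3 not without control Mouse_30 or formerly obese Mouse_152 (adjusted p up to 0.0576). These were the 3 called of 19 hypoxia and glycolysis genes, whose median difference was 0.24. Cycs, which encodes cytochrome c, had a narrow spread, 15.69 to 16.02 against 14.80 to 15.38, and a difference of 0.74 ± 0.11 (adjusted p = 0.00395). Cox7a2 of respiratory complex IV had 0.61 ± 0.16 (adjusted p = 0.046, and 0.148 with regimen as a block), a call held in 3 of the 14 fits, and 19 of 19 oxidative phosphorylation genes were above 0 with a median of 0.27. Edem1, which helps to clear misfolded proteins from the endoplasmic reticulum, differed by 0.94 ± 0.16 (adjusted p = 0.0064). It was the 1 gene called of 19 unfolded protein response genes. Their median difference was 0.18, with 14 above 0 and 5 below, and 4 were above and 0 below at an unadjusted p under 0.05. On the adipocyte list Pparg and Cidec were called, at 2.01 ± 0.44 and 1.09 ± 0.19 (adjusted p = 0.0266 and 0.00662). Pparg, which colon epithelium is known to express, had an adjusted p of 0.0884 with regimen as a block and was not called without obese sulindac Mouse_124 or formerly obese Mouse_152 (adjusted p up to 0.0593). Of the other 7 genes on that list 0 were called. The list's median difference was -0.02, with 4 of its 9 genes above 0 and 5 below.

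Cell division genes had 0 calls of 20 by limma, with 1 above and 0 below 0 at an unadjusted p under 0.05 and a median difference of 0.12. Mki67 lay at 13.79, 14.41 and 15.01 in the Ido1-high tumours and at 13.01, 14.27 and 14.48 in the Ido1-low ones (difference 0.35 ± 0.26, 95% interval -0.20 to 0.90, adjusted p = 0.536).

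**Figure D4:**
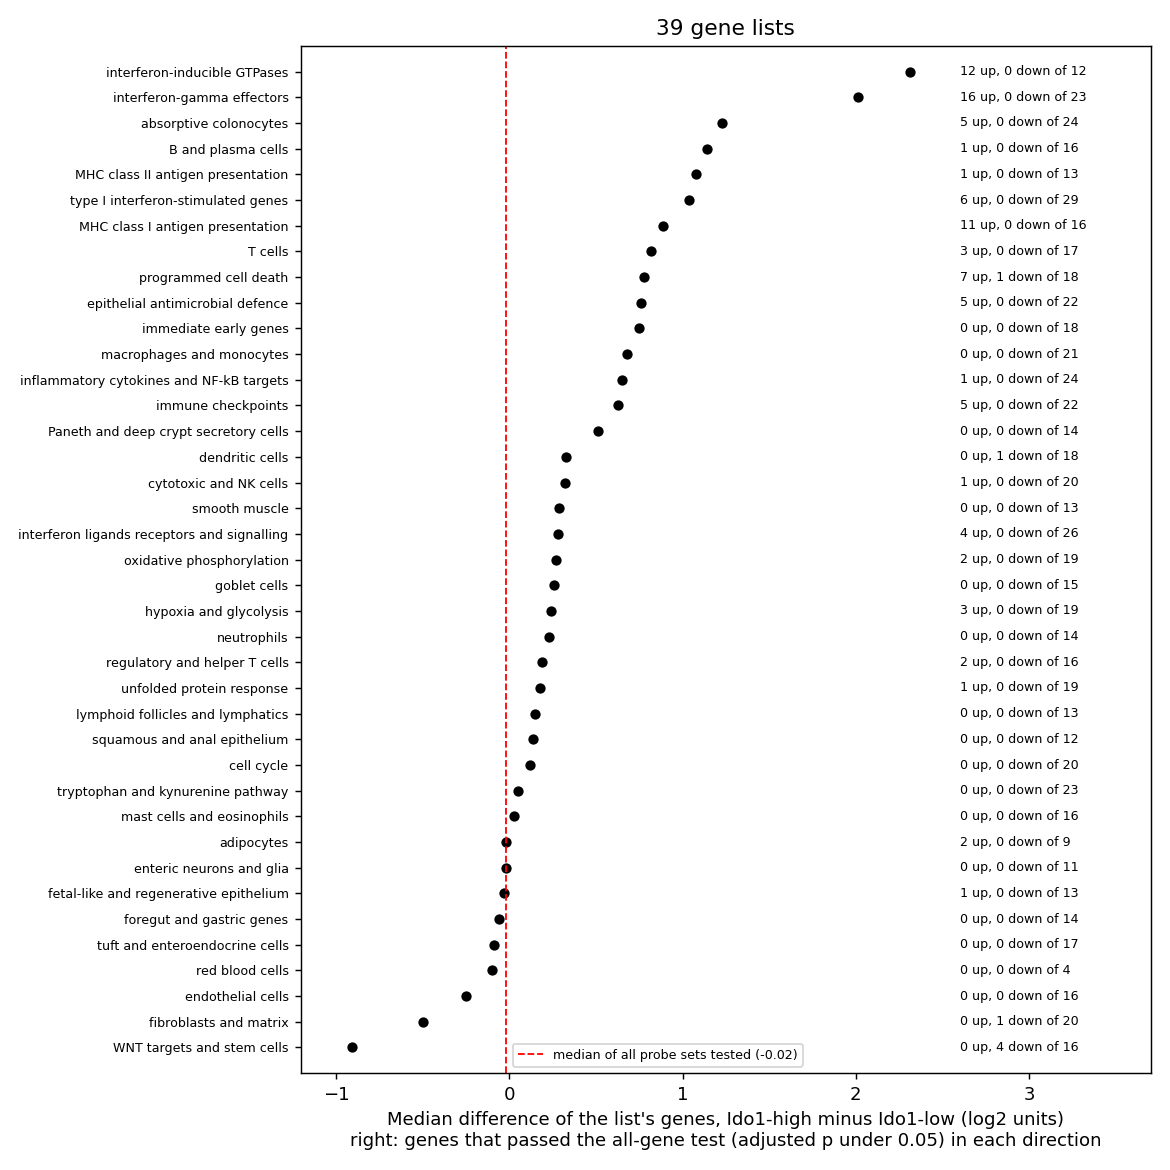
Median difference (log2 units, Ido1-high minus Ido1-low) of each of 39 gene lists, with the number of measured genes called in each direction on the right and the median of all probe sets, -0.02, as the dashed line. Interferon-inducible GTPases at 2.31 and interferon-gamma effectors at 2.01 stand at the top, and WNT targets at -0.91 at the bottom.

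The 8 middle tumours were not used to call any gene, and they did not line up by Ido1. Obese Mouse_101, with the highest Ido1 of them at 10.99, had an average GTPase level of 9.79, inside the range of the Ido1-low tumours. Obese sulindac Mouse_114, with Ido1 at 7.61, had 11.04, inside the range of the Ido1-high tumours, and its Cxcl9 and Tgtp2 were at 11.36 and 13.37. Control Mouse_27 at 10.51 and obese sulindac Mouse_129 at 10.44 lay between the ranges, with Ido1 at 7.52 and 7.66. The other 4 lay between 9.36 and 9.81. Of the 396 genes called higher, the share nearer to the mean of the Ido1-high than of the Ido1-low tumours was 81.1% in obese sulindac Mouse_129, 64.9% in obese Mouse_101, 56.8% in control Mouse_20, 55.6% in obese Mouse_107 and 55.1% in control Mouse_27. It was 37.1% in obese sulindac Mouse_114, 24.0% in formerly obese Mouse_140 and 17.4% in obese Mouse_113. The order of these shares is not that of the Ido1 level. A fit of every gene on the Ido1 level over the 8 middle tumours alone gave 1 call by limma, with 1144 probe sets at an unadjusted p under 0.05, and 371 of the 699 main calls had the same sign. Its slopes lean on obese Mouse_101, at 10.99, since the other middle tumours had Ido1 between 7.52 and 8.72. A difference of 6.20 is also wider than the range of the middle tumours, so values scaled to it are extrapolated. For the 6.20 difference in Ido1 between the ends, that fit gave a median of -1.50 for the GTPases, -1.33 for the interferon-gamma effectors and -0.98 for MHC class I genes, where the ends had given 2.31, 2.01 and 0.89. It gave 1.55 for the absorptive colonocyte genes, where the ends had given 1.23, and 0.94 for the T cell genes, where the ends had given 0.82. The WNT target and stem cell genes had 0.20 there against -0.91 between the ends, the inflammatory cytokine and NF-kB genes -2.06 against 0.65, the type I interferon targets -0.32 against 1.04 and the MHC class II genes -0.30 against 1.08. Paneth and deep crypt secretory genes had 3.87 against 0.51 and goblet cell genes 2.58 against 0.26. Over all 22 tumours the same fit called 912 probe sets, 524 of them among the 699.

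**Figure D5:**
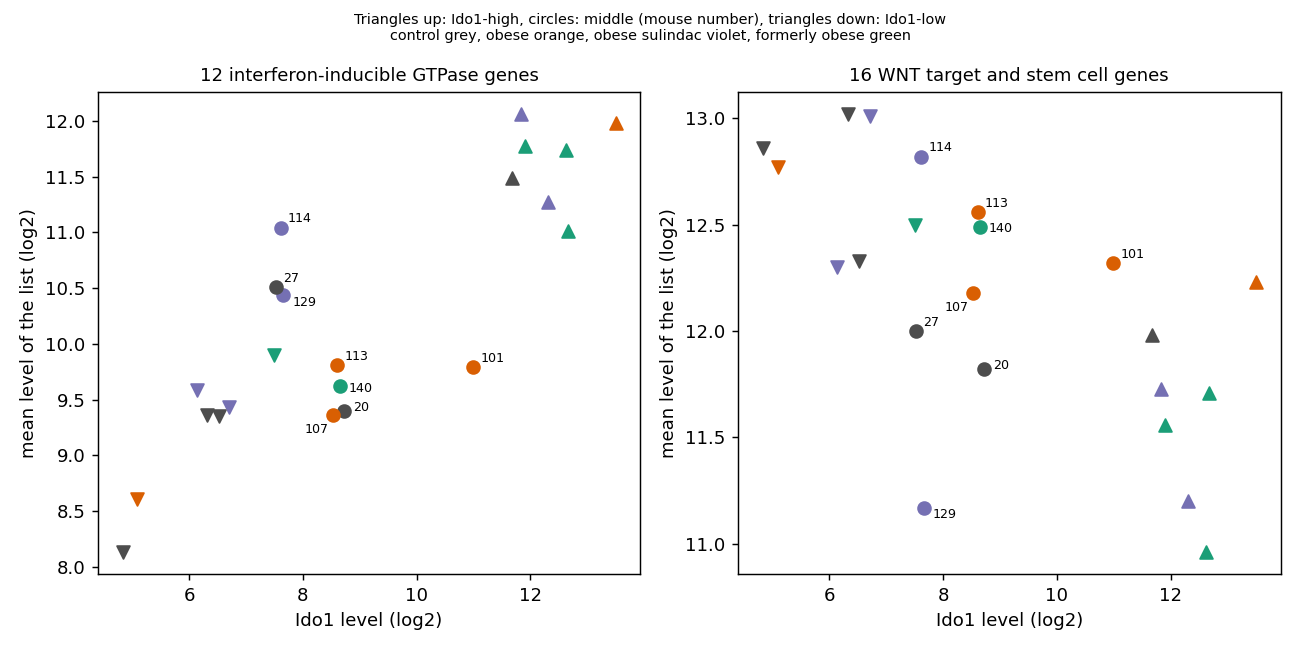
Ido1 level (log2) against the mean level (log2) of 12 GTPase genes, left, and of 16 WNT target and stem cell genes, right, for each tumour, with middle tumours marked by mouse number. Middle tumours Mouse_114, Mouse_27 and Mouse_129 have GTPase levels of 11.04, 10.51 and 10.44 at Ido1 levels of 7.61, 7.52 and 7.66, while tumour Mouse_101 has 9.79 at 10.99.

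The same rule applied to 3 other genes gave fewer calls. Ranking by Slc26a3 gave 13 calls (0.0586%), ranking by Il1b gave 2 (0.00901%) and ranking by Lgr5 gave 84 (0.378%). All 4 rankings use the same arrays, so the comparisons are not independent of each other. Of the 7 Ido1-high tumours, 4 were also Slc26a3-high and 1 was Slc26a3-low. For Il1b these numbers were 1 and 2, and for Lgr5 0 and 4. For Tgtp2 the difference was 3.56 in the Ido1 ranking, 0.69 in the Slc26a3 ranking, 0.79 in the Il1b ranking and -1.89 in the Lgr5 ranking. Krt20 had 2.61, 2.16, 0.12 and -2.15 in that order, and Nos2 had 3.58, 0.63, 2.55 and -1.95. Znrf3 had -1.52, -0.40, -0.38 and 0.92. With the Il1b level as a covariate 402 probe sets were called in the Ido1 comparison, 361 of them among the 699 main calls. The differences between rankings were not tested.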

How the data were processed

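Gene expression was measured once in each of 22 colon tumours. Per the labels, total RNA was extracted with TRIzol, prepared with the GeneChip WT PLUS reagents and run on Clariom S arrays. The authors deposited 1 table of levels on a scale read as log2, and per the submitters' processing notes the software was Transcriptome Analysis Console 4.0. No label states the background correction, the normalization, the base of the logarithm or detection calls. Base 2 was read from the range of 3.34 to 19.49, and the arrays' like medians mean that each level is relative to the rest of its array.

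Of 22203 probe sets, 19572 carried 1 gene symbol in the platform's annotation and 2631 are unnamed here. For a gene with several probe sets the one highest on average was used, and 254 probe sets held values identical to another's. Tumours were ranked by Ido1, with ties in column order. The 7 highest were compared with the 7 lowest in R 4.3.3 with limma 3.58.1 (lmFit, eBayes) over the 22202 other probe sets, with no filter and no covariate. Adjusted p-values are two-sided and follow Benjamini and Hochberg over all 22202, with calls below 0.05. Standard errors follow ± after differences. The fit was checked on simulated data. Regimens come from the sample titles. The labels give no batch, and no mouse number recurs between regimens.

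Genes were named by a rule. It takes the 12 strongest rises and 12 strongest falls past the threshold, up to 4 members with the smallest p of each of 39 gene lists, and a fixed set that includes Ido2, Ifng, Irf1, Cxcl9, Nos2, Il1b, Lgr5, Slc26a3 and Mki67. Predicted genes, Riken clones, receptor families and antigen receptor segments were not named. Il4i1, Foxp3 and Duox2 have no named probe set and were not analysed here. The members and lists were chosen with earlier results of these data known. Lists are described by counts and medians beside those of all probe sets, with no test of their own. The alternatives were regimen as a block, 5 or 11 tumours at each end, Ido1 as a continuous level, 3 groups over all tumours, a filter on dim probe sets, other scalings, a variance trend, array weights and leaving out each tumour. A split at the widest gap and covariates for Slc26a3 and Il1b were chosen after seeing the data.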

Additional observations from a re-analysis of the deposited data

Results flagged for a closer look

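Values far from the rest of their group of 7 were looked for in 116 genes, and 14 of 232 groups (6.03%) held one. Chance gives about 1 in 20, so the count is near that share. In the Ido1-low tumours, obese sulindac Mouse_X had Ido2 at 5.02 (next value 4.28) and Tdo2 at 5.81 (next 4.53), both near the bottom of the scale. Control Mouse_32 had Gzmb at 6.63 (next 5.62). Obese sulindac Mouse_131 had Mzb1 at 6.16 (next 5.47) and Lag3 at 6.22 (next 5.26). Obese Mouse_96 had Saa3 at 13.33 (next 10.16), and it was also the low tumour with the highest Il1b, at 11.77. Control Mouse_26 had Pparg at 7.63, below the next at 9.90, and control Mouse_17 had Bcl2l11 at 11.01, below the next at 11.86.

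In the Ido1-high tumours, formerly obese Mouse_150 had Cd80 at 7.52 and Ikzf2 at 9.91, below the next values of 8.79 and 10.65, and Gata5 at 7.46, above the next at 5.70. Formerly obese Mouse_134 had Adgre1 at 7.54, below the next at 8.29, and Muc2 at 18.97, above the next at 17.58. Formerly obese Mouse_152 had Pigr at 16.85 (next 15.95).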

How the results depend on the processing

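The 699 calls were 3.15% of all probe sets, 1.78% higher and 1.36% lower. With regimen as a block they were 0.914%, 0.658% and 0.257%, with 5 tumours at each end 0.468%, 0.311% and 0.158%, and with 11 at each end 0. For a continuous Ido1 level over the 8 middle tumours 0.0045% passed, 0.0045% higher and 0 lower. They were 0.559%, 0.446% and 0.113% for the split at the widest gap and 1.81%, 1.11% and 0.698% with the Il1b level as a covariate, both chosen after seeing the data. Leaving out each tumour in turn gave 1.39% to 3.36%, 0.91% to 2.01% higher and 0.482% to 1.35% lower. Other scalings, the dim filter, the variance trend, array weights, 3 groups and the Slc26a3 covariate kept the count within 1.5 times. The regimen mix had an exact permutation p of 0.0952 with 5 tumours at each end and 0.419 with 11. No named call changed sign outside the fit on the middle tumours, but all other fits share tumours with the main comparison. In the fit on the middle tumours, expressed for an Ido1 difference of 6.20, these called genes had the opposite sign, and the cause was not tested. That difference is wider than the middle tumours' range of 7.52 to 10.99, and obese Mouse_101 at 10.99 weighs heavily in these slopes. Of the genes higher in Ido1-high tumours, these had Reg3b -10.57, Reg3g -9.33, Iigp1 -2.58, Nos2 -1.35, Tgtp2 -6.60, Cxcl9 -2.70, Nox1 -3.82, Igtp -2.62, Batf2 -0.73, Irf1 -0.43, Cxcl10 -1.33 and Cd274 -2.93. A further set had Psmb8 -3.81, Psmb9 -2.64, Psmb10 -1.71, Tap1 -3.44, Gbp2 -1.32, Gbp4 -1.39, Ciita -0.51, Ifih1 -0.06, Zbp1 -0.50, Ifit2 -3.27, H2-K1 -1.02 and Psme2 -0.97. The rest had Tapbp -0.79, Tapbpl -1.58, Ctss -0.84, Cd80 -0.61, Tnfaip3 -2.05, Bak1 -0.57, Mlkl -1.60, Egln3 -0.45, Cycs -0.10, Cox7a2 -0.92, Edem1 -1.24, Lag3 -0.39 and Pigr -1.47. Of the genes lower in them, these had Nkd1 0.25, Bpifb5 4.86, Otop1 2.08, Tmem150c 0.97, Adamts17 0.58, Ptn 1.69, Sbspon 0.09, Lum 4.46 and Cadm1 0.82. Dim genes such as Ifng and Gzmb lie near the bottom of the scale, where no detection call is at hand. No paired analysis was possible because no mouse number recurs between regimens.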

Other observations

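Some called genes lay next to each other in the genome. Of 355 genes that were higher in the Ido1-high tumours and had a place in GRCm38.p6, 63 (17.7%) had a measured neighbour that was also called higher, against 3.52% of all 19501 placed genes. The runs included Psmb9, Tap1, Psmb8 and Tap2 of the MHC region, Gbp7, Gbp3 and Gbp2, Gbp8, Gbp9 and Gbp4, and Parp14, Dtx3l and Parp9, whose products act together in the antiviral response. The longest, of 5 genes, were chloride channel accessory genes, Clca3a1, Clca3a2, Clca3b, Clca4b and Clca4a. Of 273 placed genes that were lower, 34 (12.5%) had a neighbour called lower, against 2.75% of all placed genes, and the longest run was of 5 zinc finger genes, Zfp114, Zfp111, Zfp109, Zfp108 and Zfp93. Sharing of probe signal between close relatives was not tested, and the runs were picked after the values were seen.

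Immediate early genes, which respond to handling as well as to growth signals, had 0 calls of 18 by limma, with 6 above 0 at an unadjusted p under 0.05 and a median difference of 0.75. Over all probe sets the share above 0 at such a p was 8.18%, and that in either direction 17.7%. The average of the immediate early genes ran from 9.34 to 12.46 in the Ido1-high tumours and from 9.50 to 9.99 in the Ido1-low ones. Mast cell and eosinophil genes had 0 calls of 16 with 0 at an unadjusted p under 0.05, and gene lists of foregut, squamous and red blood cells had 0 calls of 14, 12 and 4, with 3, 3 and 1 at such a p. For the 13 lymphoid follicle and lymphatic genes there were 0 calls and 3 at such a p.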
